A study of Mus musculus with 16 samples.

Results

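The 10 genes described here code for proteins that crosslink, process, bind or degrade the collagen matrix, or inhibit its degradation: Lox, Loxl1, Loxl2, Adamts2, P4ha1, Plod2, Sparc, Mmp2, Mmp14 and Timp1. They were taken by name from a table of 24454 genes counted in gonadal fat of mice, and all 10 passed the filter on low counts. The fat came from lean male C57BL/6J mice of 16 weeks kept on standard chow, 16 polyA RNA libraries in 4 groups of 4. The mice of the first group had a subdiaphragmatic vagotomy (sDVX), which cuts the vagus nerve below the diaphragm, and SHU9119 (VX_SHU). The second group had sDVX and vehicle (VX_Veh), the third sham surgery and SHU9119 (Sham_SHU), and the fourth sham surgery and vehicle (Sham_Veh). SHU9119 is a synthetic peptide that blocks melanocortin receptors, and it or vehicle was pumped into a cerebral ventricle at 1 nmol/day of SHU9119 for 2 weeks, starting 4 weeks after surgery, with food intake held equal in calories across the groups. No label states that a library stands for 1 mouse, and p-values set differences between groups against the spread among libraries of a group only.

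Collagen is made in the cell as a procollagen chain whose prolines and lysines are hydroxylated before the chains wind into a triple helix. After secretion the end pieces are cut off, fibrils assemble, and lysyl oxidases turn lysines into aldehydes that join neighbouring molecules. Metalloproteinases break the matrix down again and tissue inhibitors of metalloproteinases hold them in check. In fat this matrix surrounds every adipocyte and is rebuilt as the cells swell or shrink.

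Promoters are shown for 3 of the genes with different behaviour in the tests that follow: Adamts2 and Sparc, which passed the edgeR test for SHU9119, and Mmp14, which did not. Each is the 250 bases before the start of the gene in RefSeq on GRCm38.p6, written 5′ to 3′ on the strand of the gene, and capitals mark every match to the 7 motifs searched. Matches on either strand were counted and overlapping ones run together.
Adamts2, chr11:50601835-50602084, plus strand: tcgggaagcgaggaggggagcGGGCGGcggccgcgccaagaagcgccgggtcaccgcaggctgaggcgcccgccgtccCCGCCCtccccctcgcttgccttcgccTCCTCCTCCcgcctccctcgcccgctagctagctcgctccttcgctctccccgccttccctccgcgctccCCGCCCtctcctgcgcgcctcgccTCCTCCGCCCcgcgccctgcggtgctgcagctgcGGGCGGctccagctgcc
Sparc, chr11:55420081-55420330, minus strand: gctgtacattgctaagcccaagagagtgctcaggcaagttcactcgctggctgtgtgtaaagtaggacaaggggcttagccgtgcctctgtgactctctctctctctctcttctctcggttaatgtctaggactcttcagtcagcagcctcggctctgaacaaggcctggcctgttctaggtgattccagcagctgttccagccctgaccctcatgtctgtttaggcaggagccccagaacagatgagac
Mmp14, chr14:54431348-54431597, plus strand: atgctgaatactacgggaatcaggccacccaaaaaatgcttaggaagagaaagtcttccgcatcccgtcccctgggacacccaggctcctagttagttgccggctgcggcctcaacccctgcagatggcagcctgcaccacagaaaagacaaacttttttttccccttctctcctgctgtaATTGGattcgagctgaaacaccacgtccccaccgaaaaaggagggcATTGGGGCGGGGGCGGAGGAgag

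The TATA box was searched as TATAAA, the GC box as GGGCGG and the AP-1 site as TGANTCA. The other motifs were the CCAAT box with those letters, a repeat read as GGAGGA, the PPAR response element in its direct-repeat form and the sterol regulatory element. The Adamts2 window was 78% G and C, against a median of 52.4% over 32851 promoters of that length, and held 8 matches, 5 of them GC boxes and 3 of them GGAGGA. The Mmp14 window held 5 matches within a G and C content of 55.2%, and the Sparc window held 0. In the GENCODE annotation the Sparc gene begins further upstream, at 55423183, and the bases before that start were not searched. The GC box was found in 4 of the 5 members with a promoter in the table (P4ha1, Adamts2, Mmp14 and Timp1), against 32.7% of all promoters, and CCAAT in 2 of 5 (Mmp14 and Timp1), against 33.8%. GGAGGA was found in 2 of 5 (Adamts2 and Mmp14), against 29.2%. TATAAA, the AP-1 site, the PPAR element and the sterol element had no match in the 5, against 12.4%, 6.75%, 0.0335% and 0.192% of all promoters.

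Libraries held 20425295 to 30889052 counts, and 16682 genes were tested. The adipocyte marker Adipoq had 1200 to 3960 CPM (counts scaled by edgeR to a common library size) in the 16 libraries, none of them at 0. Some libraries stood apart. The library VX_Veh1 had the lowest sum of 7 adipocyte markers, 10440 CPM against 16830 to 30900 CPM elsewhere, and the highest sum of 8 markers of motile cilia, 853 CPM against 6.19 to 319 CPM. In 6 libraries (VX_SHU4, VX_Veh4, Sham_SHU3, Sham_SHU4, Sham_Veh3 and Sham_Veh4) markers of epididymis or testis reached at least 500 CPM. Their 11 epididymis markers summed to 530 to 10320 CPM, against 4.03 to 64.9 CPM in the other 10 libraries. Of these markers Lcn5 was at 0 in 11 of the 16 libraries. Where leaving them out changed a call or moved a value by much, the value without them is given.

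The members covered a wide span of levels. Per kb of exon, Sparc had 733 CPM on average over the 16 libraries, and every library (359 to 1189 CPM per kb) lay above the next gene in order. Mmp2 followed at 21.5 CPM per kb, Loxl1 at 20.6, Lox at 13.1, Adamts2 at 12.9, Loxl2 at 11.7, Mmp14 at 10.9 and P4ha1 at 10.04 CPM per kb, and the ranges of neighbours in this order overlapped. Plod2 (3.54 CPM per kb) and Timp1 (3.53) were lowest, and the range of Plod2, 2.52 to 6.68 CPM per kb, lay below that of P4ha1, 8.46 to 12.9 CPM per kb. Counts behind a value ran from 31268 to 109385 for Sparc and from 29 to 217 for Timp1. A gene on the opposite strand overlaps 5 of the 10 genes, including Syn1 for Timp1, and with the strand setting not given their reads may be mixed.

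**Figure D1:**
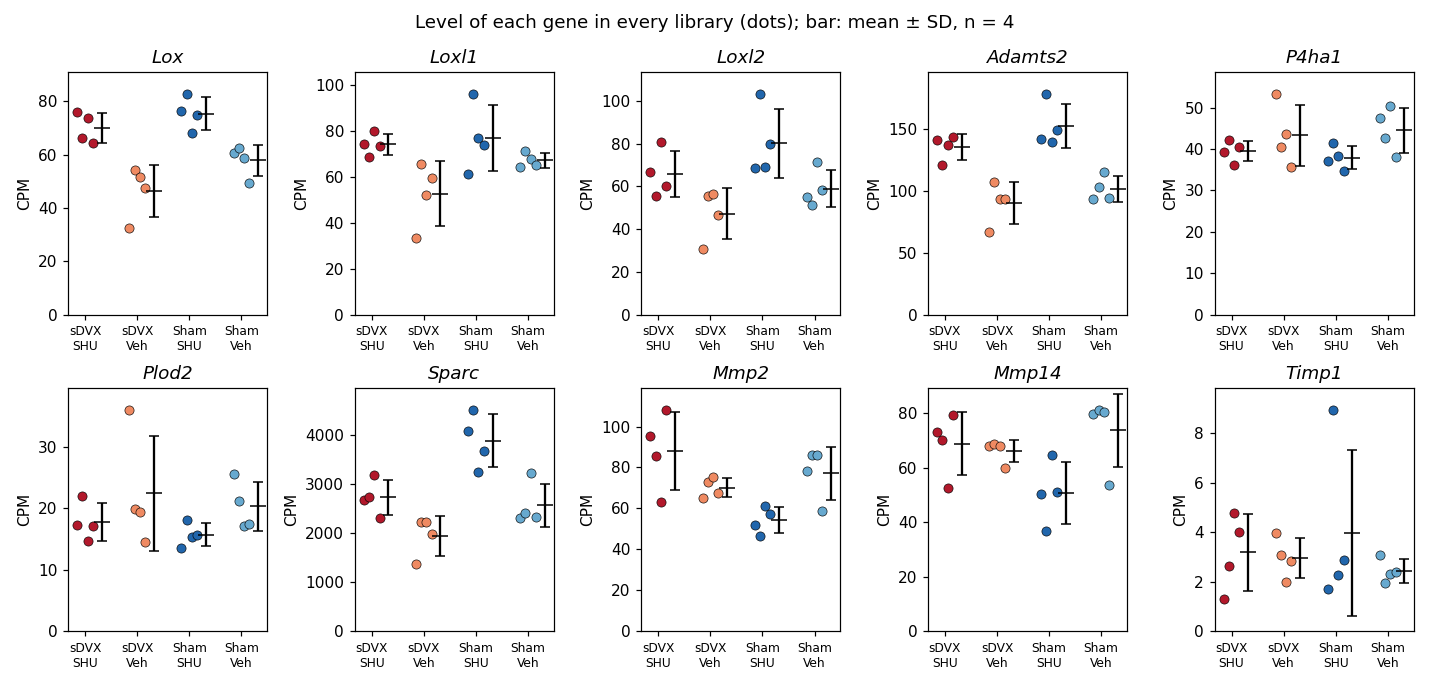
Level of each of the 10 genes (CPM, linear axis from 0, 1 panel per gene) in the 16 libraries, with groups from left to right VX_SHU, VX_Veh, Sham_SHU and Sham_Veh, points for libraries and bars for the group mean ± SD (n = 4). Sparc lies above 1300 CPM in every library and Timp1 below 9 CPM.

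With SHU9119, averaged over the surgeries, 3 of the 10 transcripts rose by edgeR and 7 did not pass its test. Those that rose were Lox, which codes for the copper-dependent lysyl oxidase, Adamts2, the proteinase that removes the amino-terminal piece of procollagen, and Sparc, a collagen-binding glycoprotein. The count of 3 stands against a background of 1.5% of genes called higher and 1.87% called in either direction. DESeq2 called 5 members, Lox, Loxl1, Loxl2, Adamts2 and Sparc, all higher (16.9% of genes in either direction). The limma-voom test with sample weights called 7 (23.4% of genes), of which Lox, Loxl2, Adamts2 and Sparc were higher and P4ha1, Plod2 and Mmp14 lower.

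Lox lies on chromosome 18 at 52516060 to 52529867 (minus strand, GRCm38.p6). It had 75.8, 66.2, 73.8 and 64.2 CPM in VX_SHU and 32.5, 54.1, 51.5 and 47.4 CPM in VX_Veh. In sham mice the values were 76.2, 82.8, 68.0 and 74.7 CPM in Sham_SHU and 60.7, 62.4, 58.9 and 49.4 CPM in Sham_Veh. Every SHU9119 library was above every vehicle library of the same surgery, and even of the other surgery. Averaged over surgeries, Lox rose by 0.49 ± 0.0937 on the log2 scale (SE, 1.40-fold, adjusted p = 0.0334, edgeR quasi-likelihood test), with 0.59 in sDVX mice and 0.38 in sham mice.

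Adamts2 lies on chromosome 11 at 50602085 to 50807573 (plus strand). It had 141, 121, 137 and 144 CPM in VX_SHU and 67.2, 107, 93.5 and 93.2 CPM in VX_Veh. In sham mice it had 142, 178, 140 and 149 CPM in Sham_SHU and 93.4, 104, 115 and 94.2 CPM in Sham_Veh. The 8 SHU9119 libraries were all above the 8 vehicle libraries. Adamts2 rose by 0.585 ± 0.0903 (SE, 1.5-fold, adjusted p = 0.0218, edgeR), rank 11 by p of 16682 genes, and the difference was 0.59 ± 0.128 in sDVX mice and 0.58 ± 0.128 in sham mice.

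Sparc lies on chromosome 11 at 55394159 to 55420080 (minus strand). Its levels were 2663, 2736, 3191 and 2308 CPM in VX_SHU and 1360, 2215, 2232 and 1974 CPM in VX_Veh. Sham mice had 4087, 4504, 3245 and 3672 CPM in Sham_SHU and 2305, 2399, 3218 and 2321 CPM in Sham_Veh. The groups did not overlap within either surgery, and the highest Sham_Veh library, 3218 CPM, was just under the lowest Sham_SHU library. Sparc rose by 0.54 ± 0.123 (SE, 1.46-fold, adjusted p = 0.0461, edgeR) and averaged 2725 ± 363 CPM in VX_SHU against 1945 ± 407 CPM in VX_Veh, and 3877 ± 541 CPM in Sham_SHU against 2561 ± 440 CPM in Sham_Veh (SD, n = 4 each).

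The 3 calls depended on single libraries, while the sizes changed little. With 1 library left out at a time the log2 changes ran from 0.44 to 0.53 for Lox, 0.54 to 0.63 for Adamts2 and 0.49 to 0.61 for Sparc, with adjusted p up to 0.0833, 0.0606 and 0.109. Without VX_SHU1, VX_SHU3, VX_Veh3, Sham_SHU2, Sham_SHU4 or Sham_Veh1 no member was called by edgeR, and without Sham_SHU1, Sham_Veh2 or Sham_Veh3 only Adamts2 was. Without VX_SHU2 or Sham_Veh4 Lox and Adamts2 were called, and without Sham_SHU3 Loxl2 was added to the 3. Without the filter on low counts Lox and Adamts2 were called and Sparc was not. With a block for the replicate number edgeR called none of the 3, and no other gene. Without the 6 libraries with epididymis or testis markers, Lox, Adamts2 and Sparc were called, and Mmp14 (−0.45) with them, in a fit where 24.4% of genes passed. That fit kept only 2 libraries in each sham group and 3 in each sDVX group. Adipocyte markers were higher with SHU9119 as well: 7 of 7 had a positive log2 change, and their sum was 16830 to 30900 CPM in the SHU9119 libraries and 10440 to 27600 CPM in the vehicle libraries. Cilia markers were lower in 8 of 8, with sums of 7.51 to 147 CPM in the SHU9119 libraries and 6.19 to 853 CPM in the vehicle libraries. By edgeR 0 of these adipocyte and cilia markers passed. Macrophage (7 of 7) and endothelial (5 of 5) markers were all positive too, and 0 of 6 mesothelium markers were. The part of such markers in these results was not tested. In bulk tissue, fewer cells of a type and less RNA per cell cannot be told apart.

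Loxl1 and Loxl2, lysyl oxidase relatives that also crosslink matrix, with Loxl1 tied to elastic fibres, did not pass by edgeR. Loxl1 (chromosome 9, 58287723 to 58313212) had 74.3, 69.0, 80.2 and 73.7 CPM in VX_SHU and 33.3, 65.9, 52.3 and 59.6 CPM in VX_Veh. It had 61.3, 96.2, 77.1 and 73.9 CPM in Sham_SHU and 64.3, 71.4, 68.01 and 65.2 CPM in Sham_Veh. The groups did not overlap in sDVX mice and did in sham mice. The averaged log2 change was 0.345 (adjusted p = 0.0973 by edgeR, 0.041 by DESeq2 and 0.0847 by limma-voom). Loxl2 (chromosome 14, 69608692 to 69695834) ran from 55.6 to 80.6 CPM in VX_SHU and from 30.7 to 56.3 CPM in VX_Veh. In sham mice it ran from 68.4 to 103 CPM in Sham_SHU and from 51.2 to 71.3 CPM in Sham_Veh. Its averaged log2 change was 0.46 (adjusted p = 0.0748 by edgeR, 0.0156 by DESeq2 and 0.0161 by limma-voom), and the groups overlapped in both surgeries.

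P4ha1 codes for a catalytic subunit of the prolyl hydroxylase that stabilises the collagen helix, and Plod2 for the lysyl hydroxylase that acts on the ends of collagen chains. Neither passed by edgeR or DESeq2, both were called lower by limma-voom averaged over surgeries and in sham mice, and their log2 changes with SHU9119 were negative in both surgeries. P4ha1 (chromosome 10, 59323197 to 59373304) averaged 39.5 ± 2.51 CPM in VX_SHU, 43.3 ± 7.45 CPM in VX_Veh, 37.9 ± 2.79 CPM in Sham_SHU and 44.6 ± 5.43 CPM in Sham_Veh (SD, n = 4 each). Plod2 (chromosome 9, 92539636 to 92608428) averaged 17.8 ± 3.05, 22.4 ± 9.38, 15.7 ± 1.85 and 20.4 ± 4.00 CPM in the same order of groups. The averaged log2 changes were −0.18 for P4ha1 (adjusted p = 0.16) and −0.36 for Plod2 (adjusted p = 0.176, edgeR), with adjusted p = 0.0405 and 0.0499 by limma-voom. In sham mice limma-voom gave adjusted p = 0.0297 for P4ha1 and 0.0284 for Plod2. The library VX_Veh1 held the highest value of each, 53.3 CPM for P4ha1 and 36.02 CPM for Plod2. Without that library the averaged changes were −0.11 for P4ha1 and −0.18 for Plod2. In sDVX mice the P4ha1 change was −0.13 with it and −0.0056 without it, and the Plod2 change −0.33 with it and 0.0014 without it.

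The proteases Mmp2 and Mmp14 were called in no comparison by edgeR with all 16 libraries. Mmp2 codes for gelatinase A, a secreted metalloproteinase that cuts denatured collagen and basement membrane, and Mmp14 for a membrane-bound collagenase that activates the Mmp2 protein. Mmp2 (chromosome 8, 92827290 to 92853421) had 95.6, 85.8, 63.1 and 108 CPM in VX_SHU and 65.03, 72.7, 75.3 and 67.6 CPM in VX_Veh. It had 52.02, 46.5, 61.04 and 57.2 CPM in Sham_SHU and 78.04, 85.9, 86.2 and 58.6 CPM in Sham_Veh. The lowest values were thus in sham mice with SHU9119, and their highest library was above the lowest Sham_Veh library. Mmp14 (chromosome 14, 54431598 to 54442456) had 73.1, 70.3, 52.7 and 79.5 CPM in VX_SHU and 67.99, 68.7, 68.2 and 59.9 CPM in VX_Veh. It had 50.3, 36.8, 64.8 and 51.2 CPM in Sham_SHU and 79.7, 81.2, 80.5 and 53.5 CPM in Sham_Veh. In Sham_Veh, 3 libraries lay close together above the fourth.

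In sham mice SHU9119 gave log2 changes of −0.51 ± 0.154 for Mmp2 and −0.54 ± 0.173 for Mmp14, and in sDVX mice 0.33 ± 0.154 and 0.06 ± 0.172. By edgeR neither passed the adjusted threshold in sham mice (adjusted p = 0.112 and 0.131). DESeq2 called both lower there (adjusted p = 0.0291 and 0.041), as did limma-voom (0.00659 and 0.00499). The difference between the surgeries in the SHU9119 effect, the interaction term, was 0.84 ± 0.218 for Mmp2 (unadjusted p = 0.00181, adjusted p = 0.957, edgeR) and 0.60 ± 0.243 for Mmp14 (unadjusted p = 0.0283, adjusted p = 0.999). With sDVX against sham under SHU9119, Mmp2 changed by 0.70 ± 0.155 (adjusted p = 0.315, edgeR), and the 4 VX_SHU libraries were all above the 4 Sham_SHU libraries, as for 3.2% of genes. Mmp14 changed by 0.44 ± 0.172 there (adjusted p = 0.462). The interaction stayed between 0.73 and 0.97 for Mmp2 with 1 library left out at a time.

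**Figure D2:**
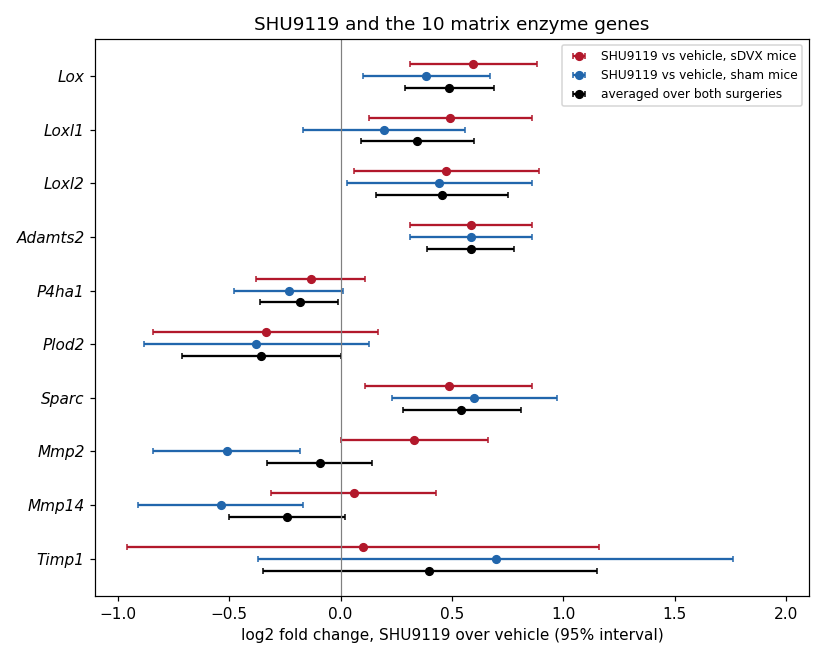
Log2 fold change of each gene, SHU9119 over vehicle, with its 95% interval, in sDVX mice (red), sham mice (blue) and averaged over surgeries (black). The intervals of Lox, Loxl2, Adamts2 and Sparc lie above 0 in all 3, and so do the points of Loxl1 and Timp1. The points of Mmp2 and Mmp14 lie below 0 in sham mice and above it in sDVX mice. In sDVX mice the interval of Mmp2 reaches 0 and that of Mmp14 runs from −0.31 to 0.43.

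Timp1 codes for a secreted inhibitor of metalloproteinases and had the lowest counts per library. It lies on chromosome X at 20870166 to 20874737. Timp1 had 1.29, 2.64, 4.78 and 4.01 CPM in VX_SHU and 3.96, 3.09, 1.98 and 2.84 CPM in VX_Veh. It had 1.71, 8.93, 2.28 and 2.87 CPM in Sham_SHU and 3.09, 1.93, 2.31 and 2.40 CPM in Sham_Veh. All groups overlapped, and Sham_SHU2 was the highest library of the 16. The log2 change with SHU9119 in sham mice was 0.70 ± 0.496 (adjusted p = 0.44, edgeR) and −0.07 without Sham_SHU2, and in sDVX mice it was 0.10 ± 0.493, with a 95% interval from −0.96 to 1.16, and 0.28 without VX_Veh1.

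In the surgeries taken alone, no member passed the adjusted threshold of 0.05 by edgeR. For SHU9119 in sham mice, 0.114% of genes did. Unadjusted p under 0.05 was reached by 6 members, 4 higher and 2 lower, against 19.6% of genes. DESeq2 called 4 members (8.98% of genes), Adamts2 and Sparc higher and Mmp2 and Mmp14 lower. With limma-voom 8 were called (23.2% of genes), Lox, Loxl2, Adamts2 and Sparc higher and P4ha1, Plod2, Mmp2 and Mmp14 lower. Groups did not overlap for Lox, Adamts2 and Sparc, each higher, as for 5.6% of genes. In sham mice edgeR called Lox, Adamts2 and Sparc when VX_Veh1 was left out (adjusted p = 0.0337, 0.0204 and 0.0389) and Adamts2 and Mmp14 when Sham_SHU3 was left out.

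For SHU9119 in sDVX mice, 0.00599% of genes passed. Unadjusted p under 0.05 was reached by 5 members, all higher, against 5.48% of genes. DESeq2 called Lox and Adamts2 (0.496% of genes) and limma-voom Lox (0.12% of genes). Groups did not overlap for Lox, Loxl1, Adamts2 and Sparc, each higher, as for 2.93% of genes. The log2 changes in sDVX mice were 0.47 for Lox, 0.48 for Adamts2 and 0.36 for Sparc without VX_Veh1, against 0.59, 0.59 and 0.49 with it. The median log2 change of the 10 members was 0.401 in sDVX mice and 0.29 in sham mice, against −0.02 and −0.057 over all genes.

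Vagotomy itself moved no member past the threshold by edgeR, and 0% of genes passed under either infusion or averaged over infusions. Under vehicle Sparc averaged 1945 CPM in VX_Veh and 2561 CPM in Sham_Veh, a log2 change of −0.40 ± 0.173 (adjusted p = 0.608, edgeR), and the 4 sDVX libraries were all lower, as for 2.16% of genes. Under SHU9119 Sparc averaged 2725 CPM in VX_SHU and 3877 CPM in Sham_SHU, a log2 change of −0.51 ± 0.173 (adjusted p = 0.445), again with all sDVX libraries lower, as for 2.44% of genes. Averaged over infusions the Sparc change was −0.45 ± 0.122 (adjusted p = 0.224), which DESeq2 called (2.57% of genes) and limma-voom did not (0.671%). Unadjusted p under 0.05 was reached by 2 members under vehicle (8% of genes), by 3 under SHU9119 (10.7%), by 4 averaged over infusions (16%) and by 2 for the interaction (4.76%). Under SHU9119 DESeq2 called Mmp2 higher (0.602% of genes), and limma-voom called Mmp2 and Mmp14 higher and Sparc lower (4.67%). Under vehicle DESeq2 and limma-voom called no member, against 0.054% and 0.024% of genes, and none for the interaction, against 0.0289% and 0.0779%. Without VX_Veh1 the Sparc change under vehicle was −0.23.

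Across the 16 libraries the members fell into sets that varied together, on log2 CPM. Of 45 pairs, 16 had a correlation with adjusted permutation p under 0.05, 12 positive and 4 negative. Here and for the markers below, libraries were shuffled across groups, so differences between groups enter these p-values. The r within groups was not tested. The closest pair by r was Lox and Adamts2 (r = 0.93, rho = 0.89, each with permutation p = 1e-05, the smallest 100000 resamples can give, adjusted 9e-05 for r and 0.000225 for rho), with r = 0.89 without the 2 farthest libraries and 0.80 within groups. Loxl2 and Sparc had r = 0.93 and rho = 0.83 (permutation p = 1e-05 and 0.0002, adjusted 9e-05 and 0.00202), with r = 0.84 without the 2 farthest libraries and 0.87 within groups. The proteases Mmp2 and Mmp14 had r = 0.89 and rho = 0.92 (permutation p = 1e-05 each, adjusted 9e-05 and 0.000225), with r = 0.87 without the 2 farthest and 0.89 within groups. The hydroxylases P4ha1 and Plod2 had r = 0.81 and rho = 0.79 (permutation p = 0.00017 and 0.00047, adjusted 0.000695 and 0.00302), with r = 0.90 without the 2 farthest and 0.76 within groups. Pairs other than the highest and the lowest were picked after their values were seen. The lowest pair was Loxl2 and Plod2, with r = −0.67 (rho = −0.56, permutation p = 0.00724 and 0.0272, adjusted 0.0217 and 0.0874), −0.50 without the 2 farthest libraries and −0.54 within groups. The 2 farthest libraries were those farthest from the median of the gene named first in a pair. For the relations to markers below, they were those farthest from the median of the marker sum. The labels give no batch, so no value within a batch was possible.

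**Figure D3:**
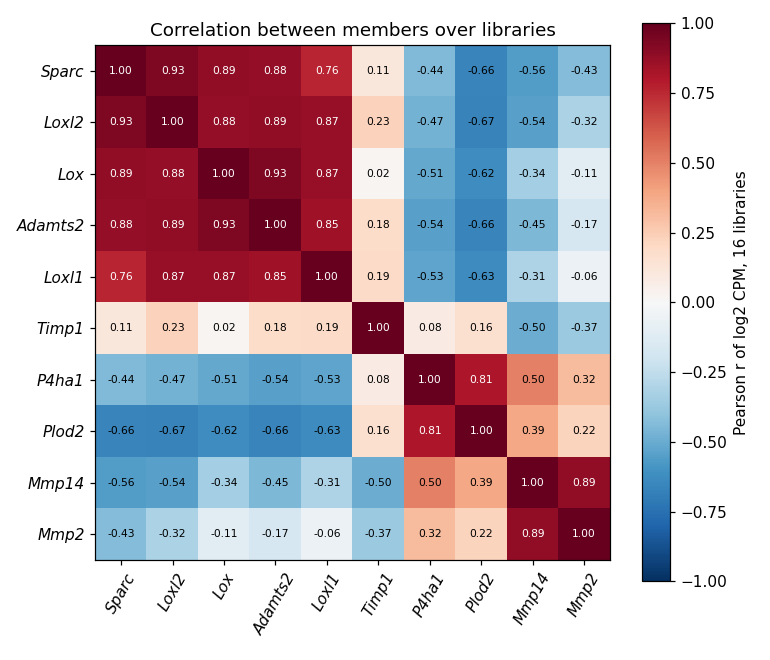
Pearson correlation of log2 CPM between the 10 genes over 16 libraries, coloured from −1 to 1. Lox, Loxl1, Loxl2, Adamts2 and Sparc form a block of high values, and Mmp2 with Mmp14 and P4ha1 with Plod2 form 2 others.

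Cell type markers moved with these sets, and how much of the variation they carry was not tested. Permutation p-values were computed for the adipocyte, stromal and macrophage sums only. Other sums, without a p-value, were as close for some members. Plod2 had r = 0.76 with motile cilia markers, Lox 0.71 with endothelial markers and Mmp14 0.66 with mesothelium markers. Mmp2 followed the sum of 8 stromal and progenitor markers, with r = 0.90 and rho = 0.90 (permutation p = 1e-05 and 2e-05, adjusted over 30 relations 0.00015 and 0.0006), 0.85 without the 2 farthest libraries and 0.85 within groups. Mmp14 followed it with r = 0.84 and rho = 0.86 (permutation p = 6e-05 and 5e-05, adjusted 0.00045 and 0.00075), 0.81 without the 2 farthest and 0.80 within groups. That sum averaged 2648 ± 386 CPM in VX_SHU, 2287 ± 118 CPM in VX_Veh, 2091 ± 218 CPM in Sham_SHU and 2608 ± 211 CPM in Sham_Veh (SD, n = 4 each), none of the 8 markers at 0 in any library. Dcn weighed most in it, with a median of 1490 CPM over libraries, against 37.8 CPM for Pi16 and 38.6 CPM for Dpp4. The single markers did not move as one with SHU9119: 4 of 8 had a positive log2 change in sDVX mice and 3 of 8 in sham mice. Per 1000 CPM of these markers, Mmp2 had 33.1 ± 3.58 CPM in VX_SHU, 30.7 ± 2.02 in VX_Veh, 25.9 ± 0.421 in Sham_SHU and 29.5 ± 3.96 in Sham_Veh. Mmp14 had 26.0 ± 1.61 CPM in VX_SHU, 29.0 ± 2.8 in VX_Veh, 24.1 ± 3.22 in Sham_SHU and 28.2 ± 3.96 in Sham_Veh, lower with SHU9119 in both surgeries. Sparc followed the sum of adipocyte markers, with r = 0.89 and rho = 0.82 (permutation p = 1e-05 and 0.00021, adjusted 0.00015 and 0.0021), 0.77 without the 2 farthest and 0.96 within groups. Per 1000 CPM of adipocyte markers, Sparc had 122 ± 12.8 CPM in VX_SHU against 113 ± 12.2 in VX_Veh, and 149 ± 6.70 in Sham_SHU against 118 ± 8.15 in Sham_Veh. On the same scale Lox had 3.15 ± 0.467 CPM in VX_SHU against 2.69 ± 0.317 in VX_Veh, and 2.93 ± 0.308 in Sham_SHU against 2.72 ± 0.602 in Sham_Veh. Adamts2 had 6.19 ± 1.58 CPM in VX_SHU against 5.29 ± 0.888 in VX_Veh, and 5.91 ± 0.738 in Sham_SHU against 4.71 ± 0.554 in Sham_Veh. With the adipocyte sum Loxl2 had r = 0.90 and rho = 0.79 (permutation p = 2e-05 and 0.00036, adjusted 0.0002 and 0.0027), and 0.72 without the 2 farthest. Lox had r = 0.81 and rho = 0.69 (permutation p = 0.00055 and 0.00396, adjusted 0.0033 and 0.0238), and 0.50 without the 2 farthest. For Loxl1 r was 0.75 and rho 0.45 (permutation p = 0.00486 and 0.0815, adjusted 0.0182 and 0.306), and r was 0.12 without these libraries, so that relation rests on them. Adamts2 had r = 0.74 and rho = 0.61 (permutation p = 0.00129 and 0.0148, adjusted 0.00645 and 0.0738), and 0.42 without the 2 farthest. Plod2 had r = −0.70 and rho = −0.38 (permutation p = 0.00591 and 0.147, adjusted 0.0197 and 0.367), and −0.43 without the 2 farthest.

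The summed macrophage markers moved with 3 crosslinking and processing genes by r, though by rho none passed the adjustment. Loxl1 had r = 0.77 and rho = 0.55 (permutation p = 0.00178 and 0.0295, adjusted 0.00763 and 0.127), and 0.52 without the 2 farthest libraries. Lox had r = 0.62 and rho = 0.26 (permutation p = 0.0141 and 0.321, adjusted 0.0405 and 0.459), and 0.30 without the 2 farthest. Adamts2 had r = 0.60 and rho = 0.33 (permutation p = 0.0148 and 0.219, adjusted 0.0405 and 0.399), and 0.26 without the 2 farthest.

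**Figure D4:**
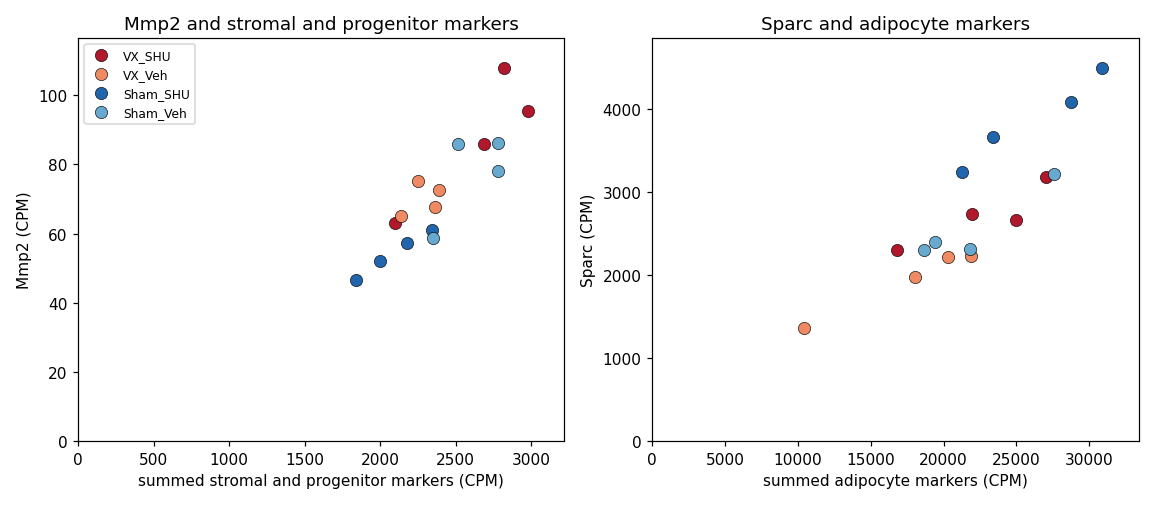
Level of members (CPM) against the summed markers of a cell type (CPM) in the 16 libraries, coloured by group. Libraries with more stromal marker RNA have more Mmp2, and those with more adipocyte marker RNA have more Sparc.

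The genes most like 3 of the members over the 16 libraries, by Pearson correlation of log2 CPM among genes with a mean of at least 5 CPM, were sought for a crosslinker, a protease and an inhibitor. For Lox, 11702 genes were compared, and Gltp (r = 0.97), Col5a1 (0.965) and Col3a1 (0.95) came first. For Mmp2 they were Neurl3 (0.905), Entpd2 (0.902) and Fgd2 (0.896). For Timp1, Snrnp25 (0.857), Ddx54 (0.841) and Extl2 (0.832) came first of 11703 genes.

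Other genes of matrix assembly, in 11 lists with 78 genes of which 74 passed the filter, gave 7 calls by edgeR for SHU9119 averaged over surgeries, all higher, against 1.5% of all genes called higher. Fibrillar collagens supplied 5 of 6: Col5a3 rose by 1.05 (adjusted p = 0.0384, edgeR), Col5a1 by 0.63 (0.0384), Col3a1 by 0.60 (0.0491), Col5a2 by 0.54 (0.0491) and Col1a1 by 0.42 (0.0324), while Col1a2 was at 0.15 (0.224). Col5a3, a chain of the type V collagen of fibril cores, averaged 621 ± 237 CPM in VX_SHU against 393 ± 141 CPM in VX_Veh, and 1054 ± 265 CPM in Sham_SHU against 391 ± 70.6 CPM in Sham_Veh. Of 5 collagen chaperone and secretion genes 1 was called, Serpinh1, the collagen-specific chaperone (0.85, adjusted p = 0.0386), with 447 ± 95.6 CPM in VX_SHU against 297 ± 83.6 CPM in VX_Veh, and 667 ± 188 CPM in Sham_SHU against 309.8 ± 65.6 CPM in Sham_Veh. Of 8 prolyl hydroxylases and partners tested 1 was called, P3h1, which hydroxylates prolines at another position (0.44, adjusted p = 0.0384). P3h1 averaged 34.5 ± 4.67 CPM in VX_SHU against 27.2 ± 2.40 CPM in VX_Veh, and 41.6 ± 8.01 CPM in Sham_SHU against 28.5 ± 2.37 CPM in Sham_Veh. The median log2 change was 0.372 for the 10 members, 0.571 for the fibrillar collagens, 0.101 for the chaperone and secretion genes and 0.029 for the prolyl hydroxylases and partners, against −0.035 over all genes. DESeq2 called 20 of the 74 genes higher and 0 lower, against 16.9% of all genes in either direction, and limma-voom 22 higher and 2 lower, against 23.4%.

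The other 8 lists had no call by edgeR for SHU9119 averaged over surgeries: other lysyl oxidases (0 of 2), procollagen proteinases and enhancers (0 of 6), lysyl hydroxylases and collagen glycosyltransferases (0 of 4), metalloproteinases and other degrading enzymes (0 of 16), metalloproteinase inhibitors (0 of 4), matricellular proteins (0 of 10), elastic fibre proteins (0 of 5) and inducers of the TGF-beta pathway (0 of 8). Their median log2 changes lay between −0.076 for the inhibitors and 0.298 for the lysyl hydroxylases and glycosyltransferases. Of the 16 degrading enzymes the smallest p was that of Adamts5, a proteoglycan-cutting proteinase, at 0.61 (adjusted p = 0.06), and of the elastic fibre proteins that of Fbn1, the fibrillin of microfibrils, at 0.71 (0.0512). Of the inhibitors Timp2 was at −0.22 (adjusted p = 0.277). The collagen glycosyltransferase Colgalt1 was at 0.16 (adjusted p = 0.0666) and the matricellular gene Tnxb at 0.40 (0.0813). Loxl4, a lysyl oxidase relative, was at 0.31 (adjusted p = 0.306) and Adamts14, a procollagen proteinase like Adamts2, at 0.23 (0.175). The lysyl hydroxylase Plod3 was at 0.45 (adjusted p = 0.0684) and Tgfb1, which codes for a growth factor that induces matrix genes, at 0.37 (0.0684).

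In the comparisons within a surgery or an infusion, and in the interaction, none of the 74 genes passed by edgeR, where the share of all genes ran from 0% to 0.114%. For SHU9119 in sham mice, unadjusted p under 0.05 was reached by 16 genes higher and 3 lower, against 19.6% of all genes in either direction. DESeq2 called 10 higher and 1 lower there, against 8.98%, and limma-voom 17 higher and 7 lower, against 23.2%. The smallest p there was that of Col5a3, at 1.43 (adjusted p = 0.0687, edgeR). In sDVX mice 19 genes were higher and 0 lower at an unadjusted p under 0.05, against 5.48% of all genes higher, and DESeq2 called 2 higher (0.496% of all genes) and limma-voom 1 (0.12%). Crtap, the partner of P3h1, was at 0.30 there and Col1a1 at 0.50 (each adjusted p = 0.396). With sDVX under SHU9119 the unadjusted counts were 9 higher and 7 lower (10.7% of all genes), with P3h4 first at 0.45 (adjusted p = 0.418). DESeq2 called 1 gene higher there (0.602% of all genes) and limma-voom 7 higher and 4 lower (4.67%). Under vehicle they were 1 higher and 5 lower (8% of all genes), with Crtap first at −0.20 (adjusted p = 0.608), and for the interaction 6 higher and 0 lower (4.76%), and DESeq2 and limma-voom made no call in either.

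**Figure D5:**
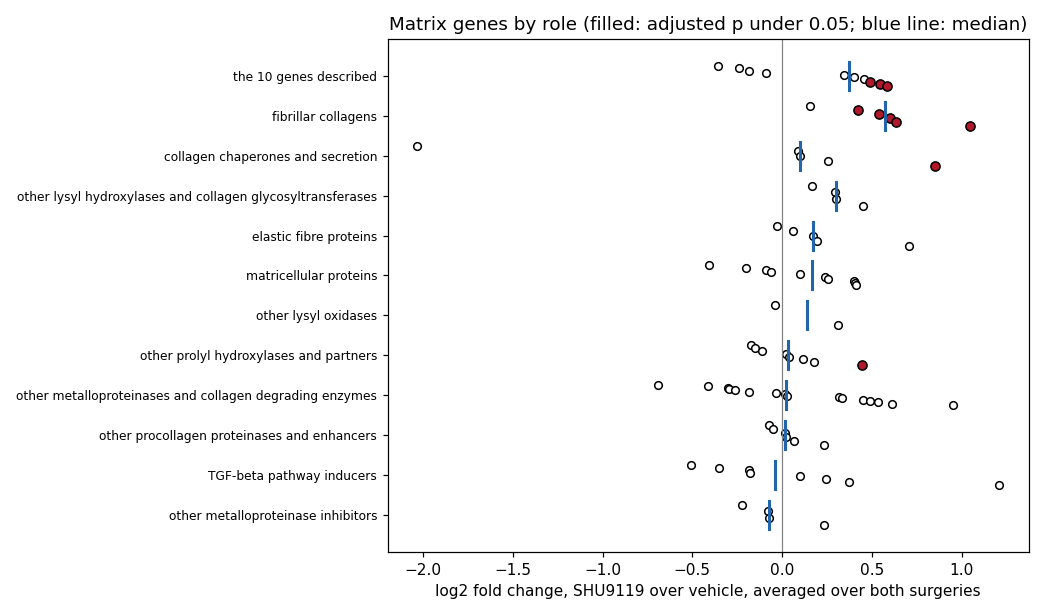
Log2 fold change with SHU9119 averaged over surgeries for every tested gene of the 10 members and of the other matrix lists, 1 row per list, with filled points for genes past an adjusted p of 0.05 and a blue line at the median. Fibrillar collagens hold 5 filled points of 6.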

How the data were processed

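PolyA RNA of gonadal fat was sequenced in 16 libraries. Counts per gene, with genes named by NCBI gene number, were made by the authors and deposited as 1 table. Per the submitters' processing notes, the tools were bcl2fastq, TopHat and edgeR, with the mm10 build and no versions. The sources used here do not name the counter, its annotation or its strand setting. Of 24454 gene numbers, 24374 were matched to symbols in RefSeq on GRCm38.p6, and 80 were not.

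Counts were analysed with edgeR 4.0.16 in R 4.3.3. The filter filterByExpr left 16682 of the 21661 genes that had a count. TMM factors scaled them, and a robust quasi-likelihood model gave each group its own mean, leaving 12 residual degrees of freedom. Benjamini-Hochberg adjustment ran over all genes, and the threshold was an adjusted p under 0.05. CPM used the scaled library sizes, and correlations used log2 CPM with a prior count of 2. Counting depth per library was 20425295 to 30889052. None of 24 replicate pairs was a copy (chi-square per degree of freedom 12.4 to 218). On simulated counts for SHU9119 in sham mice (16574 genes), 34% of 50 genes changed 1.5-fold were recovered, and 60% of 50 changed 2-fold.

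The alternatives were DESeq2 1.42.0 (its size factors in edgeR, and its Wald test), no filter on low counts, non-robust dispersion, limma-voom 3.58.1 with sample weights, a block for the replicate number, a fit of the compared groups alone, and fits with 1 library left out. Leaving out the 6 libraries with epididymis or testis markers, and the epididymis marker sum as a covariate, were chosen after seeing the data. The members, the gene lists and the rule for named genes (all members, the called genes of each list or those of smallest p, and the 3 genes most like Lox, Mmp2 and Timp1) were chosen with earlier results of these data known.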

Additional observations from a re-analysis of the deposited data

Results flagged for a closer look

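Of 40 sets of 4 libraries (10 genes in 4 groups), 4 held a library whose gap to its nearest neighbour was past Dixon's 95% critical value for its group, where chance gives about 1 in 20, or 2 sets. Timp1 in Sham_SHU2 was at 8.934 CPM, and the other 3 libraries of its group at 1.71 to 2.87 CPM. Sparc in Sham_Veh3 was at 3218 CPM, and the others at 2305 to 2399 CPM. Mmp14 was at 59.87 CPM in VX_Veh4, and the others at 67.99 to 68.7 CPM. Mmp14 was at 53.52 CPM in Sham_Veh4, and the others at 79.7 to 81.2 CPM. Of these 4 libraries 3 (VX_Veh4, Sham_Veh3 and Sham_Veh4) are among the 6 libraries high in epididymis or testis markers. Without Sham_Veh4 the log2 change of Mmp14 with SHU9119 in sham mice was −0.63, against −0.54 with it.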

How the results depend on the processing

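Over the log2 changes of the 10 members and 25 alternatives, 1602 of 1720 values kept their direction and their side of the threshold, 33 passed it newly, 30 no longer passed it and 55 changed sign. Scaling by DESeq2 size factors and non-robust dispersion changed none of these. For SHU9119 averaged over surgeries the count of members called, 3 in the reported test, was 5 with DESeq2 (Lox, Loxl1, Loxl2, Adamts2 and Sparc), 7 with limma-voom, 2 without the filter and 0 with the replicate block, under which 0 of 16682 genes were called, and 0 to 4 with 1 library left out. The count in sham mice was 0 in the reported test, 4 with DESeq2, 8 with limma-voom and 0 to 3 with 1 library left out. In sDVX mice it was 0, 2 with DESeq2 and 1 with limma-voom. For sDVX under SHU9119 it was 0, 1 with DESeq2 and 3 with limma-voom, and averaged over infusions 0 and 1 with DESeq2. The cause of these moves was not tested. Libraries of the same replicate number were weakly correlated (mean correlation of deviations per number 0.145, 0.101, −0.097 and 0.211). Of 16 libraries 5 correlated best with their own number. The libraries VX_SHU4, VX_Veh4, Sham_SHU4 and Sham_Veh4 were all among those high in epididymis or testis markers. Whether a replicate number marks a shared batch was not tested. Without the 6 libraries with epididymis or testis markers, Mmp14 was called in the averaged SHU9119 comparison (−0.45, adjusted p = 0.0358), where 4062 genes passed. That fit kept only 2 libraries in each sham group and 3 in each sDVX group. All sign changes were in values that did not pass the threshold in the reported test.

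With limma-voom the sign turned for Timp1 (SHU9119 in sDVX mice, −0.17), Plod2 (sDVX under vehicle, −0.21), Loxl1 (sDVX under SHU9119, 0.016) and, in the interaction, Loxl2 (−0.26) and Adamts2 (−0.14). Without the 6 libraries it turned for Timp1 (−0.018) and Mmp14 (−0.033) with SHU9119 in sDVX mice, P4ha1 with sDVX under vehicle (0.031) and, in the interaction, Loxl2 (−0.17), Adamts2 (−0.11) and P4ha1 (−0.0071). Averaged over infusions it turned for Timp1 without the filter (0.0071) and with the replicate block (0.045), and for P4ha1 with the epididymis covariate (−0.0047).

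With 1 library left out, Timp1 ranged from −0.069 to 0.93 in sham mice, −0.17 to 0.36 in sDVX mice, −0.58 to 0.47 for sDVX under SHU9119, −0.87 to 0.19 in the interaction and −0.15 to 0.37 for sDVX averaged. Plod2 ranged from −0.50 to 0.0014 with SHU9119 in sDVX mice, −0.16 to 0.30 for sDVX under vehicle and −0.12 to 0.36 in the interaction. Mmp14 with SHU9119 in sDVX mice ranged from −0.018 to 0.17, and Loxl1 with sDVX under SHU9119 from −0.13 to 0.068. P4ha1 ranged from −0.13 to 0.042 for sDVX under vehicle and −0.029 to 0.0504 for sDVX averaged. In the interaction Loxl2 ranged from −0.13 to 0.18 and Adamts2 from −0.12 to 0.096. Precision is limited by 4 libraries a group and, for Timp1, by 29 to 217 counts a library.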

Other observations

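Mmp12 and Timp2, other genes of matrix turnover picked after their values were seen, passed in no comparison by edgeR. Mmp12, the macrophage elastase, averaged 24.5 ± 13.9 CPM in VX_SHU, 30.7 ± 23.1 CPM in VX_Veh, 9.78 ± 2.90 CPM in Sham_SHU and 20.4 ± 9.84 CPM in Sham_Veh (SD, n = 4 each). For sDVX under SHU9119 its log2 change was 1.32 ± 0.671 (SE, adjusted p = 0.476, edgeR). Timp2, an inhibitor of metalloproteinases that also takes part in the activation of the Mmp2 protein, averaged 518 ± 116 CPM in VX_SHU, 465 ± 29.2 CPM in VX_Veh, 364 ± 101 CPM in Sham_SHU and 552 ± 57.2 CPM in Sham_Veh. Its interaction term was 0.76 ± 0.263 (unadjusted p = 0.0125, adjusted p = 0.957, edgeR). With SHU9119 in sham mice its log2 change was −0.60 ± 0.187 (adjusted p = 0.122 by edgeR, 0.0263 by DESeq2 and 0.00581 by limma-voom), and for sDVX under SHU9119 it was 0.51 ± 0.186 (adjusted p = 0.445 by edgeR, 0.191 by DESeq2 and 0.0263 by limma-voom).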
